A study of Mus musculus with 18 samples.

Results

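MII oocytes of 12-month C57BL/6JAusb mice given nicotinamide mononucleotide (NMN) were compared with MII oocytes of untreated 12-month mice. The treated mice drank water with 2 g/L NMN over 4 weeks, and the controls drank water alone. The comparison took 3 oocytes of each kind by their titles, 6 of the 18 deposited libraries, of which 16 could be used. MII oocytes of untreated mice of 4 weeks (3 libraries) and GV oocytes of 12-month mice with and without NMN (5 libraries) served as reference. Each library was made from 1 oocyte lysed gently, with the nucleus spun down and only the supernatant kept. The labels name no animals. Oocytes of a group may therefore come from 1 mouse, a group stands as 1 sample of its condition, and no test, p-value or standard error is given. The oocytes are called NMN 1, NMN 2, NMN 2-1, control 1, control 2 and control 2-1, after their titles.

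An MII oocyte is a mature egg arrested at the second meiotic metaphase until fertilisation. It makes almost no new RNA, so its transcripts are those stored during growth that have not yet been degraded, and their translation is controlled through poly(A) tails. NMN is a precursor of NAD, the coenzyme of many redox reactions and the substrate of sirtuins and poly(ADP-ribose) polymerases. It is converted to NAD by the NMNAT enzymes, while NAMPT makes NMN from nicotinamide.

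Libraries of the treated oocytes held fewer genes than those of the controls. At least 1 count was found for 6400 genes in NMN 1, 5640 in NMN 2 and 7704 in NMN 2-1, against 10394, 10744 and 8515 in control 1, control 2 and control 2-1. Thinned to the same 1878212 counts of nuclear-encoded genes, the 6 oocytes in the same order held 6413, 5373, 7449, 9902, 10417 and 8333 genes, so that every treated oocyte stayed below every control. The numbers at full depth take expected counts of at least 1 before rounding, and the thinned ones take rounded counts. NMN 1, whose nuclear-encoded counts set the depth, has more genes after thinning for this reason. Library totals were 3294743, 4677567 and 3194174 counts with NMN and 4384119, 3408203 and 2842369 in controls. A floor of 3 counts lay between 0.528 and 1.18 scaled CPM per library, CPM being a gene's share of the counts after scaling between libraries. Genes encoded by mitochondrial DNA took 43.0% of the counts in NMN 1 and 33.2% in NMN 2 but 6.18% in NMN 2-1, against 12.6, 10.2 and 9.09% in the controls. The exact 95% binomial interval of these shares, which covers counting error only, was widest in NMN 1, at 42.94 to 43.05%. The 100 most abundant genes took 70.7, 70.2 and 49.4% of counts with NMN and 40.6, 42.2 and 50.3% in controls. NMN 1 and NMN 2 thus stood apart from the other 4 oocytes in gene number, mitochondrial share and the share of the 100 most abundant genes, while NMN 2-1 lay closest to control 2-1.

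**Figure D1:**
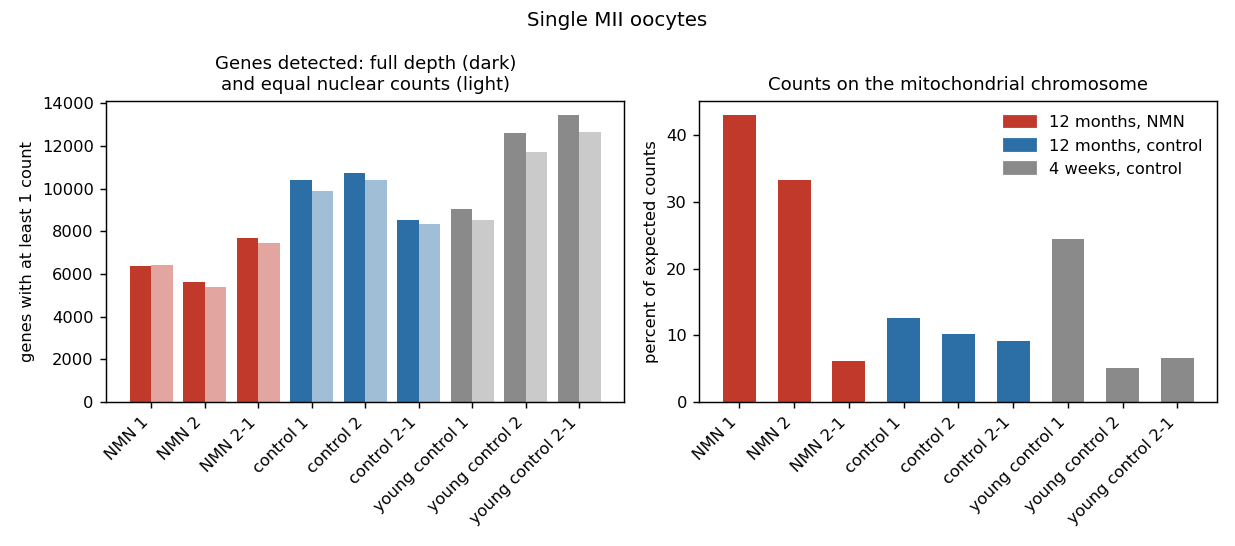
Genes with at least 1 count (left, dark bars at full depth before rounding, light bars after rounding and thinning to equal nuclear counts) and percent of expected counts on the mitochondrial chromosome (right) in each MII oocyte, 1 bar per oocyte. The 3 NMN oocytes have the lowest gene numbers, from 5640 to 7704, and NMN 1 and NMN 2 have the highest mitochondrial shares, 43.0 and 33.2%.

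Each set of markers of other cells summed to at most 104 CPM in any of the 6 oocytes, unevenly between oocytes. Of 24 cumulus and granulosa genes, 21 had no count in any treated oocyte and 13 had none in any control, and their scaled CPM summed to 14.6, 0 and 55.9 with NMN and 104, 21.5 and 18.2 in controls. Sums over 12 immune genes were 0, 2.48 and 0 against 14.6, 22.5 and 0. Sums over 10 theca and stroma genes were 0, 97.1 and 56.8 against 50.9, 25.5 and 30.1. Most of these sums was Myh11 alone, at 0, 97.1 and 49.96 CPM against 38.2, 16.8 and 29.1 CPM. In control 1, Gja1 gave 44.5 CPM of the cumulus and granulosa sum. The 8 endothelial genes summed to 31.6, 5.27 and 9.99 against 28.2, 25.5 and 30.1. The 6 erythroid genes had counts only in NMN 2, at 29.8. Of 12 genes that define oocytes, 7, 9 and 11 had a count in NMN 1, NMN 2 and NMN 2-1, against 11, 12 and 12 in controls, and summed to 2898, 12865 and 5153 against 5547, 13695 and 4829. Ddx4, a germ-cell RNA helicase, was the 1 of the 12 with no count in any treated oocyte. It was at 0, 5.75 and 18.5 CPM in controls, so control 1 lacked it too.

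Across 12161 genes, more were lower than higher in the treated oocytes. Group means were compared as the log2 ratio after adding 1 CPM, and a ratio of -1 or less is called lower by 2-fold or more. This held for 4028 genes, 33.1%, while 1785 genes, 14.7%, were higher by 2-fold or more. With library totals as the only scaling, the numbers were 4880 and 1204, and lower genes made up 80.2% of both instead of 69.3%; with the mean of the deposited TPM they were 4802 and 760, or 86.3%. All 3 treated oocytes were below all 3 controls for 1374 of the lower genes, 11.3% of all genes, and above them for 159 of the higher genes, 1.31%. Without NMN 2-1 these counts were 3128 and 806 of the 12161 genes. Leaving out any other oocyte instead gave 1660 to 2453 lower and 226 to 348 higher genes, as fewer oocytes make overlap rarer. The median log2 ratio over all genes was -0.33, and it was -0.22 with DESeq2's size factors and -0.64 with library totals. Scaling on nuclear-encoded genes alone, which takes out the mitochondrial share, gave 4192 lower and 1784 higher genes.

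The 3 treated oocytes differed from each other more than the controls did. Against the mean of the controls, the median log2 ratio was -0.92 in NMN 1, with 5910 genes lower by 2-fold or more and 1619 higher. It was -1.19 in NMN 2, with 6458 lower and 1761 higher, and -0.45 in NMN 2-1, with 4572 lower and 1400 higher. Each control oocyte was set against the mean of the other 2 in the same way. Control 1 had a median of 0 with 2660 genes lower and 1952 higher, control 2 had 0 with 2199 and 2380, and control 2-1 had -0.26 with 3994 and 1828. Control 2-1, which had the fewest genes among the controls, also had more lower than higher genes, though fewer of the former than each treated oocyte. Spearman's rank correlation across the 12161 genes, which are not independent replicates, was 0.61 between NMN 1 and NMN 2, 0.57 between NMN 1 and NMN 2-1 and 0.49 between NMN 2 and NMN 2-1. It was 0.77 to 0.83 among the controls and 0.75 to 0.78 between NMN 2-1 and the controls.

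**Figure D2:**
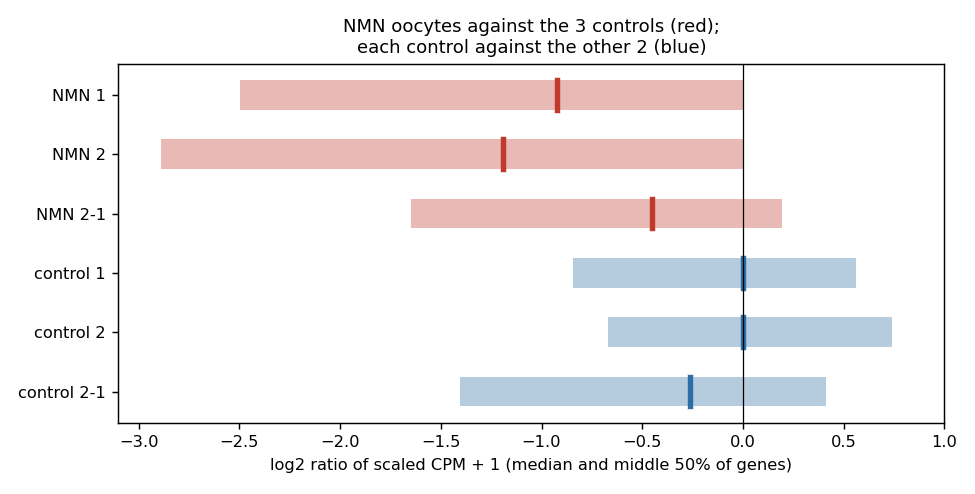
Median (line) and middle 50% of genes (bar) of the log2 ratio of scaled CPM + 1, for each NMN oocyte against the mean of the 3 controls and each control against the mean of the other 2, over 12161 genes. The medians run from -1.19 to -0.45 in NMN oocytes and from -0.26 to 0 in controls.

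Of genes at 10 CPM or more in each control, more lacked a count in NMN 1 and NMN 2 than in NMN 2-1. There were 3724 such genes, chosen by their level in the controls, and 695 (18.7%) had no count in NMN 1, 1018 (27.3%) had none in NMN 2 and 81 (2.18%) had none in NMN 2-1. Only 26 of them had no count in any treated oocyte. The same 3724 genes lacked a count in 169 cases (4.54%) in young control 1, an MII oocyte with 24.4% mitochondrial counts and 9062 genes, and in 0 and 2 cases in the other young controls. Among genes at 10 CPM or more in a pair of controls, the remaining control lacked 32 of 4088 (0.783%), 10 of 4010 (0.249%) and 117 of 4466 (2.62%). Genes at 10 CPM or more in all 6 oocytes numbered 1691, and this set, chosen by its levels, had a median log2 ratio of 0.10 with 172 genes lower and 334 higher by 2-fold or more.

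The titles place control 2-1 and NMN 2-1 in a batch 2. Control 1 and control 2 carry no batch word, and NMN 1 and NMN 2 are titled batch 1 and batch 2 but lack the extra digit, and were taken as oocytes 1 and 2 of an earlier batch, called batch 1. Within batch 1, 5406 genes were lower and 1877 higher with NMN by 2-fold or more, and the median log2 ratio was -0.66. Between NMN 2-1 and control 2-1, 2728 genes were lower and 1806 higher, and the median was 0. The batches share no oocyte. Lower in both were 1364 genes (11.2% of all genes, 25.2% of those lower in batch 1 and 50% of those lower in batch 2). Higher in both were 306 genes (2.52% of all, 16.3 and 16.9% of each list). A further 897 genes were lower in batch 1 and higher in batch 2, and 474 had the opposite signs. Lower in batch 1 were thus 5406 of all 12161 genes, 1364 of the 2728 lower in batch 2 and 897 of the 1806 higher in batch 2. Higher in batch 1 were 1877 of all 12161 genes and 306 of the 1806 higher in batch 2. These shares are close, so being lower or higher in both batches is not by itself a sign that the batches agree. The results below therefore give both batches for part of the genes and lists, and batch 2 rests on 1 oocyte a side. For the 35 gene lists described below, medians within batch 2 lay between -0.59 (mitochondrially encoded mRNAs) and 0.25 (deadenylation and decay). Within batch 1 they lay between -2.69 (unfolded protein response) and 2.61 (mitochondrially encoded mRNAs).

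The genes with the lowest ratios were absent or nearly so in treated oocytes and moderately abundant in controls. Gmps, the enzyme that makes GMP (chromosome 3, 63976106 to 64022579, GRCm38), was at 0, 0 and 2.19 CPM in NMN 1, NMN 2 and NMN 2-1 and at 367, 382 and 14.5 CPM in control 1, control 2 and control 2-1, 349-fold lower by the group means. Control 2-1 was far below the other controls. Pdia3, a protein disulfide isomerase of the endoplasmic reticulum (chromosome 2, 121413775 to 121438687), had no count in any treated oocyte and was at 235, 131 and 5.45 CPM in controls, at least 370-fold lower when 3 counts over the 3 oocytes are taken as the floor. Its level differed between the batches as that of Gmps did. Sys1, a membrane protein of the Golgi (chromosome 2, 164456964 to 164479638), had no count in any treated oocyte and 39.6, 77.0 and 106 CPM in controls, at least 221-fold lower. Tnik, a kinase (chromosome 3, 28263214 to 28675858), had no count with NMN and 44.7, 49.3 and 31.2 CPM in controls, at least 125-fold lower. For both genes the controls of the batches were alike, and the log2 ratio was -5.89 and -6.74 for Sys1 and -5.58 and -5.01 for Tnik in batch 1 and batch 2.

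Other genes in this set gave the same picture. Arhgef28, a guanine nucleotide exchange factor, had 1 count in all treated oocytes together and was at 34.3, 29.0 and 75.9 CPM in controls, 375-fold lower with a 95% counting interval of 66.9 to 14826. Plpp3, a lipid phosphate phosphatase, had 3 counts, against 34.7, 149 and 70.1 CPM, 236-fold lower (80.6 to 1148). Tmem39b, a transmembrane protein, had 1 count, against 38.4, 122 and 29.4 CPM, 566-fold lower (101 to 22367). Apbb2, an adaptor of the amyloid precursor protein, had 3 counts, against 30.8, 33.8 and 74.8 CPM, 124-fold lower (42.2 to 603). P4ha1, a collagen prolyl hydroxylase, was at 0, 2.48 and 0 CPM against 259, 91.6 and 46.9 CPM. Ftsj3, which acts in ribosomal RNA processing, was at 0, 0 and 1.87 CPM against 93.3, 108 and 30.9 CPM, and Rgs12, a regulator of G protein signalling, was at 0, 0 and 1.56 CPM against 33.6, 83.0 and 43.6 CPM. All of these genes had log2 ratios of -3.47 or below in each batch. That they were lower in both was fixed by choosing genes without overlap, and large ratios were favoured by the same choice. The direction in each batch was fixed in this way for every gene named for having no overlap. In GV oocytes the log2 ratio of NMN to control was between -1.31 (Apbb2) and 0.63 (Sys1) for the 12 genes with the lowest ratios.

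The genes with the highest ratios were mostly at or near the floor in controls. Zfp69, a zinc finger protein (chromosome 4, 120930137 to 120951699), was at 5.13, 198 and 15.9 CPM in treated oocytes and 1.06, 0.75 and 0 CPM in controls, 121-fold higher by the group means, most of it from NMN 2. Setd1b, a methyltransferase for lysine 4 of histone H3 (chromosome 5, 123142193 to 123168629), was at 7.503, 37.8 and 24.0 CPM against 1 count in all controls together, 303-fold higher (53.7 to 12006). Nacc1, a transcriptional regulator with a BTB domain (chromosome 8, 84670483 to 84687862), was at 9.48, 22.3 and 11.9 CPM against no count, at least 60.3-fold higher. Bdkrb1, a bradykinin receptor, was at 20.5, 46.5 and 31.5 CPM against 0, 1.75 and 0 CPM. Wdr13, a protein of WD repeats, was at 12.6, 53.0 and 15.9 CPM against 0.528, 0 and 0 CPM. Setd1b, Nacc1, Bdkrb1 and Wdr13 were each at or above 7.503 CPM in each treated oocyte. The long noncoding RNA Pvt1 was at 75.4, 199 and 45.6 CPM against 8.45, 0 and 3.27 CPM.

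U2af1l4, a splicing factor related to U2AF, was the one of these genes far above the floor in every oocyte, at 1373, 1663 and 194 CPM with NMN and 35.7, 33.0 and 83.5 CPM in controls, 21.2-fold higher by the group means. Its log2 ratio was 5.42 in batch 1 and 1.21 in batch 2. Rnf212, which marks meiotic crossover sites, was at 44.6, 54.6 and 8.74 CPM against 0, 3.002 and 0 CPM, and Bbs5, a subunit of the BBSome of cilia, was at 7.90, 117 and 25.6 CPM against 1.94, 2.75 and 0 CPM. Of the 140 genes named by the rules used here, 27 share exon bases with another gene, and the strand used in counting is not given in the sources used here. Reads within the shared bases cannot be told apart from those of the neighbour, and how much of each gene is shared was not measured. Among the genes described these are Pdia3 with Catsper2, U2af1l4 with Psenen, Cct8 with Usp16, Mterf4 with Sned1, Rps25 with Trappc4 and Ccdc84, Cnot9 with Usp37, Tacc3 with Tmem129, Khdc3 with Gm20509, Gas6 with Tmem255b, Pde3a with Gm28523, Sirt7 with Mafg, mt-Atp6 with mt-Atp8 and mt-Co3, Gapdh with Iffo1 and Rpl31 with Tbc1d8.

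**Figure D3:**
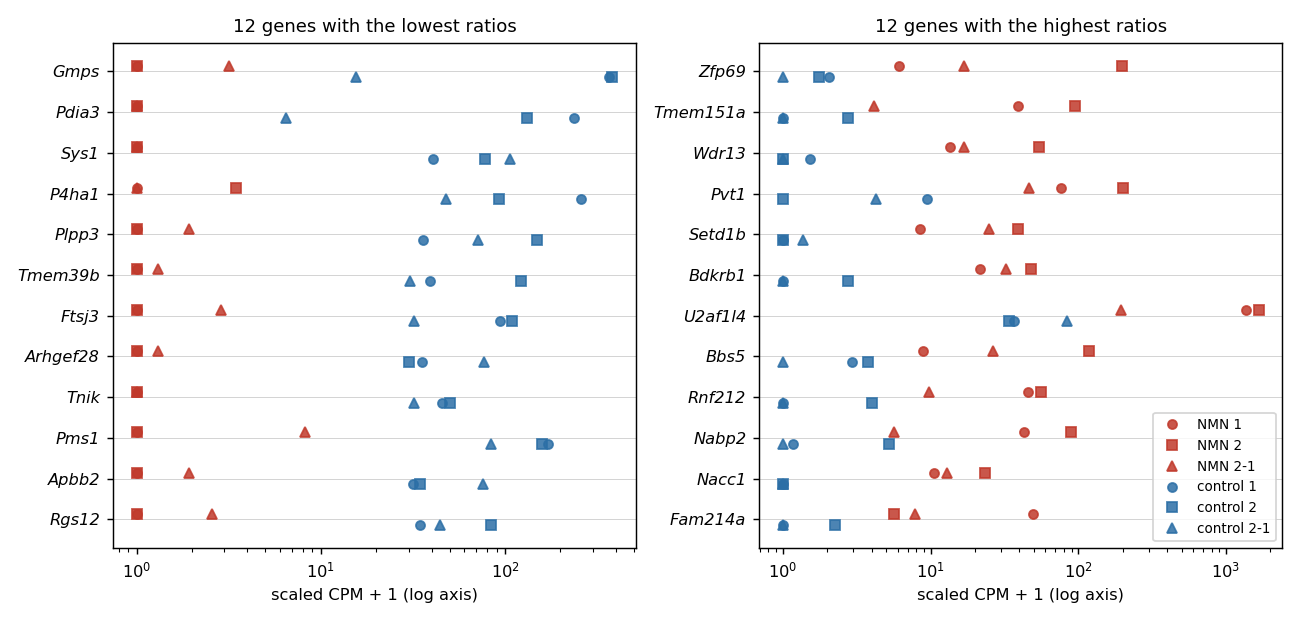
Scaled CPM + 1 (log axis) of the 12 genes with the lowest and the 12 with the highest log2 ratios among those whose higher group mean reached 10 CPM and whose groups did not overlap, 1 point per oocyte, NMN in red and controls in blue. Most lower genes sit at 1, which is no count, in NMN 1 and NMN 2, and U2af1l4 is the only higher gene above 30 CPM in each control.

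Gene lists by function were described by their medians beside the all-gene median of -0.33, -0.92 in NMN 1, -1.19 in NMN 2 and -0.45 in NMN 2-1. The all-gene median differed by level. In 5 bins of mean CPM over the 6 oocytes it was 0, -1.48, -0.58, -0.22 and -0.19, from lowest to highest. The lowest bin ended at 0.80 CPM, below the 1 CPM added. Lists were not matched for level, and the part of level in their values was not tested. The 13 mRNAs of mitochondrial DNA, which encode core subunits of the respiratory chain, had a median log2 ratio of 1.97. By 2-fold or more 12 of 13 were higher (92.3%, against 14.7% of all genes). Only 1 of them, mt-Co3, was higher without overlap, and none was higher by 2-fold or more in both batches. The median of 1.97 came from NMN 1 and NMN 2, with medians of 2.36 and 2.43, while NMN 2-1 was at -0.28 and its batch at -0.59. Cytochrome b mRNA, mt-Cytb, was at 323350, 254310 and 19068 CPM with NMN and 62050, 52460 and 26838 CPM in controls. The ATP synthase mRNA mt-Atp6 was at 143130, 121210 and 20898 CPM against 21257, 22166 and 38914 CPM. For both mRNAs NMN 2-1 was the lowest of all 6 oocytes. A block of chromosome 1 pseudogenes nearly identical to mitochondrial DNA took 4.91, 4.48 and 1.69% of counts with NMN and 0.528, 0.454 and 2.60% in controls. The values of single mitochondrial genes are uncertain for this reason, and mt-Co3 had no count in control 1 and control 2.

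Nuclear genes of oxidative phosphorylation went the other way in the same 2 oocytes, as did nearly every list of nuclear genes. The exception was mitochondrial DNA maintenance in NMN 1 (0.53), and all genes were at -0.92 and -1.19. The 87 oxidative phosphorylation genes had a median of -2.18 in NMN 1, -2.82 in NMN 2 and 0.37 in NMN 2-1. For the group means it was -0.20, with 22 lower and 7 higher by 2-fold or more (25.3% lower, against 33.1% of all genes). In both batches 6 were lower (6.90%, against 11.2% of all genes), among them Atp5g3, a subunit of the membrane ring of ATP synthase. It had no count in any treated oocyte and 5.46, 2.75 and 22.9 CPM in controls, at least 30.9-fold lower. Atp5b, the catalytic beta subunit of the same enzyme, was at 277, 576 and 193 CPM with NMN and 58.6, 117 and 83.9 CPM in controls, 4.04-fold higher. Atp5j2, another ATP synthase subunit, was at 77.0, 36.0 and 41.8 CPM against 13.6, 6.50 and 20.3 CPM. Atp5b and Atp5j2 were the only 2 of the 87 that were higher by 2-fold or more in both batches, where 2.52% of all genes were.

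Of 78 mitochondrial ribosomal proteins, 26 were lower and 12 higher (33.3 and 15.4%, as in all genes with 33.1 and 14.7%), with a median of -0.37. Mrpl1 was at 0, 0.310 and 0.937 CPM with NMN against 37.0, 27.3 and 28.0 CPM, 73.9-fold lower, and Mrpl39 had 2 counts in all treated oocytes against 17.6, 22.8 and 21.4 CPM, 90.1-fold lower (24.7 to 748). Of 29 genes of mitochondrial protein import, 10 were lower and 6 higher (34.5 and 20.7%). Timm17b, a subunit of the inner membrane translocase, had no count with NMN and was at 14.4, 12.5 and 10.2 CPM in controls, while Timm8a1, a chaperone of the intermembrane space, was at 120, 49.3 and 16.2 CPM against 0.528, 9.005 and 0.363 CPM. Mterf4, which acts in assembly of the mitochondrial ribosome, had no count with NMN and 13.9, 34.3 and 21.8 CPM in controls. Dguok, the mitochondrial deoxyguanosine kinase, was present in every oocyte at 43.4, 41.3 and 49.96 CPM with NMN against 97.5, 152 and 177 CPM, 3.16-fold lower. It was lower in both batches, with log2 ratios of -1.54 and -1.80.

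Enzymes of the citric acid cycle and fatty acid oxidation had a median of -1.04, with 13 of 25 lower (52.0%, against 33.1% of all genes) and 2 higher, and their medians were -1.55, -1.20 and -1.03 in NMN 1, NMN 2 and NMN 2-1. Within batch 2 the median was -0.12. Hadha, a subunit of the mitochondrial trifunctional protein, had no count in NMN 1 and NMN 2 but 48.7 CPM in NMN 2-1, against 56.8, 56.5 and 88.3 CPM. Acadm, the medium-chain acyl-CoA dehydrogenase, was at 113, 238 and 89.6 CPM with NMN against 57.4, 62.3 and 34.5 CPM, 2.85-fold higher, and log2 ratios were 1.53 and 1.35 in the batches. Glycolytic genes had a median of -0.23, which was 0.58 when only the 6 oocytes entered the filter and scaling, with 10 of 23 lower (43.5%) and 5 higher. Gapdh, often used as a reference gene, was low and overlapping, at 35.5, 3.10 and 17.5 CPM against 0.704, 12.5 and 1.82 CPM.

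Genes that make or use NAD were mostly near the detection limit. Of 21 genes of NAD synthesis and salvage, 11 passed the filter, with a median of -0.55. By 2-fold or more 3 were lower and 1 higher (27.3 and 9.09%, against 33.1 and 14.7% of all genes). Nampt, which makes NMN, had no count with NMN and was at 2.64, 1.25 and 0 CPM in controls. Nmnat1, the nuclear enzyme that turns NMN into NAD, was at 1.97, 4.96 and 15.6 CPM against 9.68, 12.0 and 12.7 CPM, so the groups overlapped. Nmnat2, the cytoplasmic form, was at 0, 0 and 2.50 CPM against 8.09, 12.8 and 2.91 CPM. Nmrk1, the kinase of nicotinamide riboside, was at 109, 55.2 and 47.5 CPM against 88.3, 45.02 and 89.7 CPM, and Nadk, which makes NADP, was at 0, 60.5 and 59.3 CPM against 57.4, 46.5 and 80.3 CPM. Both overlapped. Slc12a8, proposed as an NMN transporter, had 1 count with NMN against 0.88, 3.002 and 1.82 CPM, and is too low to rank.

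Sirtuins, which consume NAD when they deacylate proteins, were mostly lower by the group means, 6 of 7, with 1 higher. Past 2-fold were 2 lower and 1 higher (28.6 and 14.3%, against 33.1 and 14.7% of all genes). None was past 2-fold in the same direction in both batches. The median was -0.74, but 1.11 when only the 6 oocytes entered the filter and scaling. That setting kept 6689 genes instead of 12161, so its list medians need not cover the same members. Sirt1 was at 1.58, 1.24 and 2.81 CPM with NMN and 4.05, 7.75 and 1.45 CPM in controls. Sirt7 had no count with NMN and was at 9.68, 46.5 and 0 CPM in controls. Sirt4 was at 43.4, 111 and 0.312 CPM against 0.176, 23.3 and 2.54 CPM, higher in batch 1 (log2 ratio 2.62) and lower in batch 2 (-1.43). Among 13 other NAD-consuming enzymes, 3 were lower and 4 higher (23.1 and 30.8%, against 33.1 and 14.7% of all genes). Parp2, a poly(ADP-ribose) polymerase of DNA repair, was at 0, 0.310 and 11.9 CPM against 35.5, 20.01 and 45.8 CPM.

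Genes of the unfolded protein response and quality control in the endoplasmic reticulum had a median of -1.46, the lowest of the 35 lists by the group means. In NMN 2 alone spindle assembly genes (-3.94), nuclear pore genes (-3.32) and maternal effect genes (-3.103) had lower medians than its -2.82, and in NMN 2-1 alone 6 lists did, from -1.20 for mitochondrial DNA maintenance to -0.82 for ubiquitin genes, against -0.80. Of 26 genes, 17 were lower by 2-fold or more (65.4%, against 33.1% of all genes) and 2 higher, and 11 were lower with no overlap between oocytes (42.3%, against 11.3%). The medians were -3.03, -2.82 and -0.80 in NMN 1, NMN 2 and NMN 2-1, and -0.43 within batch 2. Lower in both batches were Pdia3, Sel1l, Derl1, Syvn1 and Atf6, which was 5 of 26 (19.2%, against 11.2% of all genes), and Derl2 was higher in both. Sel1l, the adaptor of the ubiquitin ligase that removes misfolded proteins, was at 0.395, 0 and 1.87 CPM with NMN and 26.4, 44.5 and 29.8 CPM in controls, 44.4-fold lower. Atf6, a sensor of the unfolded protein response, was at 0, 0 and 10.3 CPM against 56.7, 42.8 and 28.3 CPM, 12.4-fold lower. Dnajc3, a chaperone that inhibits the kinase PERK, was at 50.9, 8.38 and 245 CPM against 1617, 2708 and 330 CPM. Its ratio rested on batch 1, at -6.14, with -0.43 in batch 2.

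The proteasome list had a median of -0.78, with 16 of 44 lower and 1 higher (36.4 and 2.27%, against 33.1 and 14.7% of all genes). Psmd6, a lid subunit, had 2 counts with NMN against 12.7, 7.25 and 13.4 CPM in controls, 49.7-fold lower (13.5 to 415), and Psma3, a core subunit, was at 11.1, 28.2 and 39.3 CPM against 43.3, 76.3 and 72.6 CPM, 2.44-fold lower. Vcp, the ATPase that extracts ubiquitinated proteins from membranes and complexes, was at 0, 0 and 2.19 CPM against 49.6, 33.5 and 28.3 CPM, 51.0-fold lower. Heat shock chaperones had a median of -0.35, which was 0.0031 when only the 6 oocytes entered the filter and scaling, with 8 of 34 lower and 7 higher (23.5 and 20.6%). Cct8, a subunit of the chaperonin that folds actin and tubulin, was at 0, 0 and 6.56 CPM against 95.2, 81.0 and 98.4 CPM, 41.9-fold lower. Hspa8, Stip1, Bag6 and Hsf1, 4 of 34, were higher by 2-fold or more in both batches, where 2.52% of all genes were. Lower in both were 2 of 34 (5.88%, against 11.2% of all genes).

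Ribosomal protein mRNAs depended on the oocyte. The 83 cytosolic genes had medians of -2.32 in NMN 1 and -2.48 in NMN 2 but 0.32 in NMN 2-1, and -0.66 for the group means, with 26 lower and 7 higher (31.3% lower, against 33.1% of all genes). Lower in both batches were 14 of 83 (16.9%, against 11.2% of all genes) and higher in both were none. Rps25, a small subunit protein, had no count with NMN and was at 23.1, 10.005 and 11.6 CPM in controls, at least 44.5-fold lower. Rpl19 was at 0, 1.24 and 2.19 CPM against 34.3, 10.3 and 9.08 CPM, and Rps2 at 0, 12.4 and 1.56 CPM against 22.7, 31.0 and 25.1 CPM. Rpl31 was on the other side, at 108, 48.1 and 20.3 CPM against 8.09, 9.005 and 14.2 CPM. Translation initiation factors had a median of -0.44, with 14 of 41 lower and 4 higher (34.1 and 9.76%, against 33.1 and 14.7% of all genes). Eif4e, which binds the mRNA cap, was at 89.2, 296 and 122 CPM with NMN against 39.1, 35.5 and 43.2 CPM, 4.30-fold higher, with log2 ratios of 2.34 and 1.48 in the batches. Eif1, which acts in start codon selection, was at 178, 203 and 177 CPM against 29.7, 67.5 and 101 CPM.

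The 27 genes of oocyte identity and the zona had a median of -0.40, with 9 lower and 7 higher (33.3 and 25.9%, against 33.1 and 14.7% of all genes). Zp3, a glycoprotein of the egg coat, was at 3.55, 0 and 67.5 CPM with NMN and 364, 449 and 143 CPM in controls, 13.5-fold lower, with log2 ratios of -7.20 and -1.07 in the batches. Gdf9, a TGF-beta family ligand made by oocytes, was at 198, 180 and 2272 CPM against 1333, 6818 and 1944 CPM, lower in batch 1 (-4.42) and at 0.23 in batch 2. H1foo, the linker histone of the oocyte, was at 385, 408 and 11559 CPM against 12031, 31644 and 20810 CPM. Omt2a was at 23316, 61080 and 9764 CPM against 2499.9, 3032 and 6618 CPM, and Omt2b, an oocyte-expressed gene nearly identical to it, was at 25688, 57857 and 11672 CPM against 2907, 3619 and 9699 CPM. Reads of this pair may be split between the genes, and the log2 ratios in batch 2 were 0.56 and 0.27. In NMN 1 and NMN 2, then, H1foo and Gdf9 were below every control and Omt2a and Omt2b above every control, while NMN 2-1 was nearer to the controls than they were for all 4.

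Maternal effect genes, whose products the early embryo needs, had a median of -0.81, with 16 of 36 lower (44.4%, against 33.1% of all genes) and 2 higher. Of these, 10 were lower without overlap (27.8%, against 11.3%), and 4 of 36 (11.1%, against 11.2%) were lower in both batches. The medians were -1.53, -3.103 and -0.11 in NMN 1, NMN 2 and NMN 2-1. Sall4, a zinc finger factor of pluripotency, had no count in NMN 1 and NMN 2 and 143 CPM in NMN 2-1, against 502, 436 and 190 CPM in controls. Khdc3 and Padi6, of the subcortical maternal complex and the cytoplasmic lattices, were lower in both batches: Khdc3 was at 0, 10.2 and 51.2 CPM against 178, 107 and 135 CPM and Padi6 at 0, 6.51 and 10.3 CPM against 104, 94.8 and 52.7 CPM. Dppa3, which protects the maternal genome from demethylation after fertilisation, was at 10526, 8596 and 37599 CPM against 5250, 5930 and 26292 CPM, higher in the oocytes of batch 2 whatever their treatment. Its log2 ratio was 0.77 in batch 1 and 0.52 in batch 2, short of 2-fold, and it ran from -0.39 to 1.76 when each oocyte was left out.

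Lists of storage and decay of maternal mRNA had medians near that of all genes. Deadenylation and decay genes had a median of -0.24, with 7 of 28 lower and 4 higher (25 and 14.3%, against 33.1 and 14.7% of all genes). Btg4, through which CCR4-NOT removes poly(A) tails in the egg, was at 1444, 10564 and 638 CPM with NMN and 1154, 1794 and 596 CPM in controls, so that its log2 ratio of 1.83 came from NMN 2 and was -0.18 without it. Pabpn1l, an oocyte poly(A)-binding protein, was at 0, 0.310 and 186 CPM against 211, 915 and 312 CPM. Cnot9, a subunit of CCR4-NOT, was at 20.1, 49.0 and 31.5 CPM against 8.27, 11.006 and 0 CPM. Storage and translation control genes had a median of -0.41, with 11 of 33 lower and 3 higher (33.3 and 9.09%). Caprin2, an RNA-binding protein, was at 173, 202 and 87.4 CPM against 401, 541 and 248 CPM, 2.57-fold lower, and its log2 ratios of -1.32 and -1.49 were alike in the batches. Cpeb1, which binds the cytoplasmic polyadenylation element, was at 7.11, 0.310 and 37.2 CPM against 69.5, 46.3 and 64.3 CPM.

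Meiotic kinases, cyclins and arrest genes had a median of -0.42, with 12 of 34 lower and 2 higher (35.3 and 5.88%, against 33.1 and 14.7% of all genes). Ensa, which inhibits the phosphatase PP2A once phosphorylated, was at 0, 2.48 and 0 CPM with NMN and 14.6, 21.5 and 23.2 CPM in controls, 23.9-fold lower. Pde3a, the oocyte's cAMP phosphodiesterase, was at 3.55, 0 and 34.0 CPM against 85.2, 65.3 and 37.4 CPM. Genes of cohesin, separase and the anaphase-promoting complex had a median of -0.51, with 12 of 37 lower and 3 higher (32.4 and 8.11%), a share of lower genes near that of all genes. Fbxo5, the inhibitor of that complex also known as EMI1, was at 0, 0 and 14.1 CPM against 57.4, 90.0 and 29.4 CPM, and Mau2, a part of the cohesin loader, had 3 counts against 42.2, 48.5 and 17.8 CPM, 116-fold lower (39.5 to 564). Stag2, a cohesin subunit, was at 0.395, 0.931 and 10.6 CPM against 25.2, 13.8 and 30.5 CPM.

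Spindle checkpoint and chromosomal passenger genes had a median of -0.77, with 8 of 17 lower and 1 higher (47.1 and 5.88%, against 33.1 and 14.7% of all genes). Plk1, a kinase of the spindle, was at 9.08, 0 and 66.8 CPM with NMN and 99.1, 76.8 and 88.3 CPM in controls, and Bub3, a checkpoint protein, was at 0, 98.7 and 121 CPM against 237, 342 and 139 CPM. Both lay near the control in batch 2, at -0.40 and -0.19. Kinetochore genes had as many lower as higher, 9 and 9 of 41 (22.0% each), with a median of -0.05 that turned to 0.34 when only the 6 oocytes entered the filter and scaling. Nuf2, a subunit of the NDC80 complex that binds microtubules, was at 276, 229 and 126 CPM with NMN against 72.0, 86.3 and 43.6 CPM, 3.13-fold higher, with log2 ratios of 1.66 and 1.51 in the batches. Cenps, a centromere protein, was at 4117, 2949 and 1133 CPM against 557, 221 and 741 CPM.

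Spindle assembly genes and kinesins had a median of -0.71, with 15 of 36 lower (41.7%, against 33.1% of all genes) and 1 higher, and 7 of 36 (19.4%, against 11.2%) were lower in both batches. Their medians of -1.995, -3.94 and -0.35 placed NMN 2 lowest. Kif11, the motor that pushes spindle poles apart, had no count in any treated oocyte and was at 28.2, 24.0 and 15.98 CPM in controls, at least 67.8-fold lower. Tacc3, a spindle protein of the meiotic oocyte, was at 0, 3.41 and 23.7 CPM against 261, 248 and 25.1 CPM, lower in batch 1 only by 2-fold or more, since batch 2 was at -0.08. Genes of actin, tubulin and the Arp2/3 complex had a median of -0.66, with 11 of 27 lower (40.7%, against 33.1% of all genes) and 5 higher. Actb, the cytoplasmic actin, was at 0, 1.24 and 5.00 CPM against 40.8, 15.3 and 18.5 CPM, 12.0-fold lower. Arpc2, an Arp2/3 subunit, was at 22.5, 33.5 and 37.5 CPM against 97.5, 132 and 101 CPM, 3.54-fold lower, and its log2 ratio was -1.997 and -1.41 in the batches.

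Genes of egg activation and calcium had a median of -1.25, with 11 of 20 lower (55.0%, against 33.1% of all genes) and none higher by 2-fold or more. The median was -1.97 without NMN 2-1 and -0.06 within batch 2. Trpm7, a channel for divalent ions, had no count with NMN and was at 13.6, 25.8 and 7.99 CPM in controls, at least 47.1-fold lower. Cacna1h, Gas6 and Plcb1 were also lower in both batches, which made 4 of 20 with Trpm7 (20%, against 11.2% of all genes). Gas6, a secreted ligand of TAM receptors, was at 0, 0 and 12.8 CPM against 18.7, 14.01 and 37.8 CPM, 5.501-fold lower.

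DNA repair genes had a median of -0.78, with 24 of 51 lower (47.1%, against 33.1% of all genes) and 4 higher, and 12 of 51 (23.5%, against 11.2% of all genes) were lower in both batches. Pms1, a mismatch repair protein, was at 0, 0 and 7.18 CPM with NMN and 171, 158 and 82.8 CPM in controls, 57.4-fold lower. Lig4, the ligase of end joining, had 2 counts with NMN against 40.3, 49.5 and 34.5 CPM, 188-fold lower (51.8 to 1557), and Xrcc1, a scaffold of single-strand break repair, had none against 7.92, 13.01 and 17.8 CPM, at least 38.5-fold lower. The medians of the list were -1.52, -2.54 and -0.74 in NMN 1, NMN 2 and NMN 2-1, but -0.04 within batch 2.

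Chromatin modifiers and DNA methylation genes had a median of -0.89, with 23 of 50 lower (46.0%, against 33.1% of all genes) and 1 higher, and 15 lower without overlap (30.0%, against 11.3%). In both batches 9 of 50 (18.0%, against 11.2%) were lower, which were Uhrf1, Dnmt3b, Tet1, Ezh1, Setdb1, Ehmt1, Kdm1a, Kat6a and Kat8, and Setd1b was higher. Tet1, which oxidises methylated cytosine, had 1 count with NMN against 8.62, 14.5 and 46.1 CPM in controls, 169-fold lower (30.0 to 6687). Dnmt3b, a de novo DNA methyltransferase, had no count against 2.29, 20.3 and 15.3 CPM, at least 37.6-fold lower. Ezh1, a methyltransferase for lysine 27 of histone H3, was at 1.97, 0 and 1.56 CPM against 17.6, 31.5 and 22.9 CPM, 20.4-fold lower. Spliceosome genes had a median of -0.61 (14 of 45 lower, 31.1%, and 3 higher) and nuclear pore genes -0.79 (11 of 28 lower, 39.3%, and 3 higher). Snrnp70, a protein of the U1 particle, was at 28.4, 22.0 and 66.8 CPM against 121, 148 and 167 CPM, 3.72-fold lower. Sec13, shared by the pore and by transport vesicles, was at 2.37, 0.620 and 130 CPM against 134, 425 and 160 CPM.

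Lists with medians near 0 were autophagy and mitochondrial dynamics (-0.10), the BCL2 family and apoptosome (0) and the small RNA pathway (0). In the first, 5 of 32 were lower and 5 higher (15.6% each), and in the second 4 of 20 each way (20%). In the third, 6 of 23 were lower and 7 higher (26.1 and 30.4%). Of all genes, 33.1% were lower and 14.7% higher. Apaf1, the core of the apoptosome, was at 26.5, 29.8 and 25.3 CPM with NMN and 6.34, 5.25 and 10.9 CPM in controls, 3.63-fold higher, with treated oocytes alike and log2 ratios of 2.1 and 1.14 in the batches. Asz1, a germ-cell protein of the piRNA pathway, was at 0, 38.5 and 14.1 CPM against 67.6, 54.0 and 65.7 CPM. The mitochondrial DNA maintenance list was at 0.25 with medians of 0.53, -1.60 and -1.20 in NMN 1, NMN 2 and NMN 2-1, and it was -0.20 with library totals, -0.71 with mean TPM and -1.07 without NMN 1. In 29 of the 35 lists NMN 2-1 had the highest median of the 3 treated oocytes, so that the lower values were those of NMN 1 and NMN 2, whose mitochondrial shares were 43.0 and 33.2% and whose gene numbers were the lowest. The part of those shares and gene numbers in the list values was not tested.

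**Figure D4:**
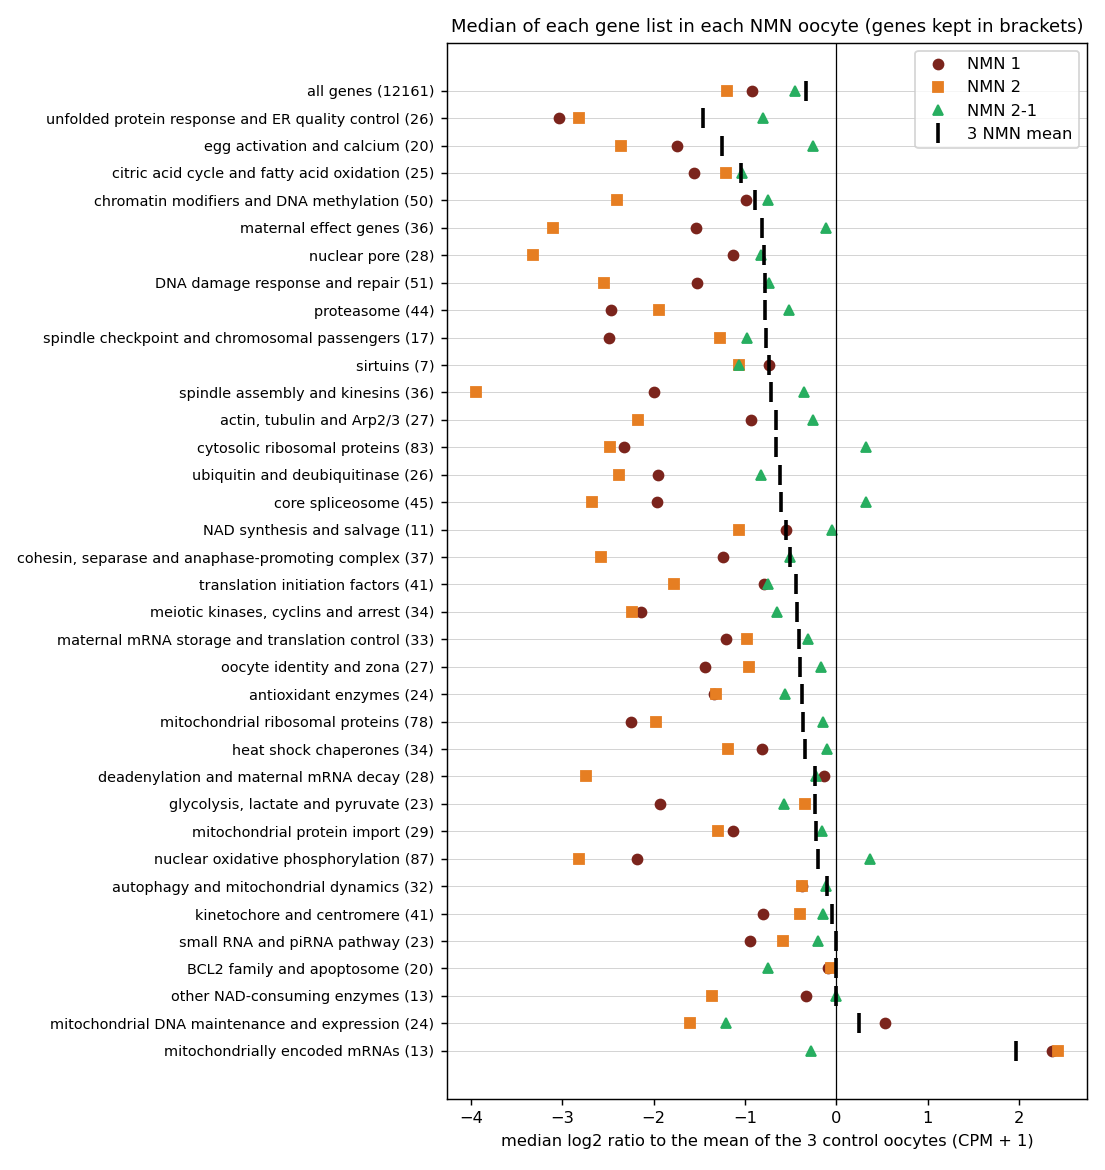
Median log2 ratio to the control mean of each of 35 gene lists and of all genes, in NMN 1 (circles), NMN 2 (squares) and NMN 2-1 (triangles), and for the mean of the 3 (bars), with the number of genes kept in brackets. NMN 1 and NMN 2 lie left of NMN 2-1 for 29 of the 35 lists, and the 13 mitochondrially encoded mRNAs are at 2.36 and 2.43 in NMN 1 and NMN 2 and -0.28 in NMN 2-1.

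By transcript length, NMN 2 had the widest range of medians. All 12161 genes were put in 5 bins of about 2432 genes by the median of their deposited lengths over libraries. In NMN 2 the median log2 ratio was -0.93 in the bin of the shortest genes (up to 1075 bases) and -2.18 in that of the longest (from 3458.5 bases), and the share of genes with a count was 41.2 and 37.7%. In NMN 1 the same bins had medians of -0.93 and -1.06 and shares of 41.9 and 57.0%, and in NMN 2-1 medians of -0.01 and -0.56 and shares of 59.2 and 68.2%. Control 2-1, set against the other controls, went from 0 to -0.57, control 1 from -0.03 to 0.02 and control 2 from -0.31 to 0.07. Among lower genes named above, Gmps, Arhgef28 and Kif11 (8105, 6259 and 4819 bases) are in the bin of the longest genes, while Sys1 and Tnik (1606 and 1531.5 bases) are not. The higher genes Setd1b and Nacc1 (5020 and 4300 bases) are in it too. The part of length in these values was not tested. A narrower set held protein-coding genes at 10 CPM or more in the control mean, again in 5 bins. Its shortest and longest bins had medians of -1.68 and -1.30 in NMN 1. They were -1.69 and -3.88 in NMN 2 and 0.14 and -0.40 in NMN 2-1.

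**Figure D5:**
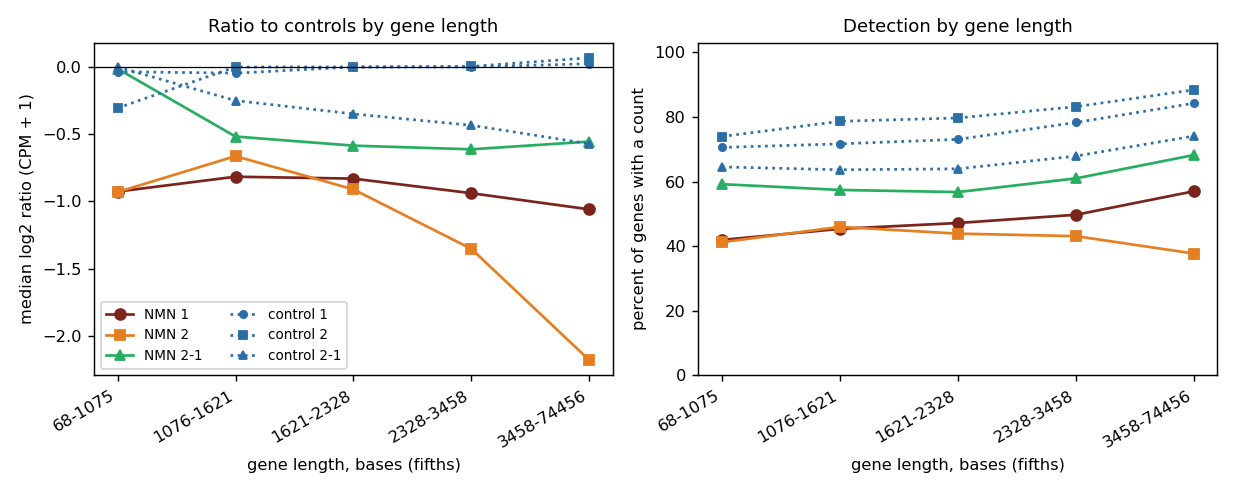
Median log2 ratio (left) and percent of genes with a count (right) in 5 bins of gene length over 12161 genes; NMN oocytes are set against the mean of the controls and each control against the mean of the other 2. NMN 2 goes from -0.93 in the shortest to -2.18 in the longest genes, NMN 1 from -0.93 to -1.06, and control 2-1 from 0 to -0.57.

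In GV oocytes of the same age, the log2 ratio of NMN to control was 0.01 over all genes, and the 35 list medians lay between -0.37 and 0.64. The list of the unfolded protein response was at 0.13 in GV and -1.46 in MII oocytes, egg activation at 0.07 and -1.25, and mitochondrially encoded mRNAs at 0.63 and 1.97. These comparisons share no oocyte, and the difference between the stages was not tested.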

How the data were processed

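RNA was sequenced from single oocytes. The submitters' processing notes list TopHat2 2.1.1, Cufflinks, Trim Galore 0.4.5 and FastQC 0.11.8, and the build GRCm38 (mm10). The deposited tables give, per the file headers, an expected count per gene, which the authors did not normalise. They also give TPM, which per the file headers the authors scaled by length and library. TPM served only an alternative. The step that made them is not given in the sources used here.

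Expected counts were rounded, except for the numbers of genes detected at full depth. Of 47069 genes, 46574 took a symbol and GRCm38 coordinates from GENCODE vM21. Over 16 libraries (1 of an identical pair was dropped, and 1 of 5009 counts left out), filterByExpr of edgeR 4.0.16 (R 4.3.3) with a minimum count of 10 by group left 12161 genes, scaled to CPM by TMM. After 1 CPM was added to each group mean, their log2 ratio was taken. Plain folds use scaled means. Against a group without counts, a fold is a lower bound from 3 counts over that group, and with 1 to 3 counts it is the ratio of pooled counts with its exact 95% interval. In simulated counts without spread between oocytes, the calculation returned folds planted in abundant genes. This checks the arithmetic only, and not how reliable ratios are for single oocytes or for genes near the floor. No test of groups was made, since no animals are named.

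Genes were named by a rule: the 12 with the largest ratio in each direction without overlap and with 10 CPM or more in the higher mean, up to 4 per list on the same terms, NAD and sirtuin genes with at least 1 CPM, Gdf9, Zp3, Btg4, Gapdh and Actb, and the 5 with the highest TPM per group. Predicted genes were not named. Members, lists and rules were chosen with earlier results of these data known. The counts of lists lower or higher in both batches, and the genes named by these counts alone, were chosen after their values were seen. Alternatives used DESeq2 1.42.0 size factors, other scalings, filters, added CPM, TPM, batches and left-out oocytes.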

Additional observations from a re-analysis of the deposited data

How the results depend on the processing

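Beside the 4028 lower and 1785 higher genes, other settings gave other counts but more lower than higher genes in every one run. Filter and scaling over only the 6 oocytes left 6689 genes with 1878 lower, 1183 higher and 861 lower without overlap. Adding 5 CPM gave 2162 lower genes. Means of log2 values gave 1089 higher genes, and the deposited TPM gave 760 higher and 50 higher without overlap. Library totals gave 91 higher without overlap. Within batch 1, 4172 lower and 896 higher genes had no overlap. With the titles read literally, the batch 1 median was -0.89. Leaving out each oocyte gave 3689 to 5463 lower genes, 1518 to 2016 higher, 1660 to 3128 lower without overlap, 226 to 806 higher without overlap, and medians of -0.71 to -0.16. The highest counts and the median of -0.71 came without NMN 2-1, except for the 2016 higher genes without control 2, where the median was -0.16. Lower genes without overlap were also 2453 without control 2-1, and higher ones 331, 348, 245 and 303 without NMN 1, NMN 2, control 2 and control 2-1. The ratio of detected genes, 0.666, ranged from 0.609 to 0.713, and that of mitochondrial shares, 2.59, from 1.86 to 3.59. The cause of these changes was not tested, apart from fewer oocytes making overlap rarer.

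Signs of values past 2-fold or larger than the spread between oocytes turned for mitochondrially encoded mRNAs (list median -0.59 within batch 2, -0.28 in NMN 2-1 alone), Sirt4 (-1.43, -2.88), mt-Atp6 (-0.90, -0.39), mt-Cytb (-0.49, -1.30), mt-Atp8 (-0.99, -1.33), Gdf9 (0.23 within batch 2) and Btg4 (-0.030 in literal batch 1, -0.18 to 2.34 leaving out each oocyte, lowest without NMN 2, and -0.89 in NMN 2-1 alone). Counting small values too, 25 of 665 list medians under alternatives (11 lists) and 33 of 2660 gene ratios (13 genes) had the opposite sign. Examples are mitochondrial DNA maintenance (-1.07 without NMN 1), deadenylation (0.25 within batch 2), Sirt1 (0.64 within batch 2), Nmnat1 (0.28 within batch 2) and Sirt6 (0.26 within batch 1). NMN 2-1 alone was added after seeing the data. Of 665 list medians under alternatives, 593 stayed within the spread between oocytes, as did 2066 of 2660 ratios of named genes. No paired analysis was possible because the labels tie no oocytes to each other by animal and no test was made, so within-batch ratios stand in its place. Group values rest on 3 oocytes a side and those of batch 2 on 1 a side.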
